A study of Mus musculus with 9 samples.

Results

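The genes described here are those of the deposited marker table whose name begins with S100, the family of small calcium-binding proteins. They were taken by name from the genes already listed there as markers, with earlier results of these data known. Of the 234 genes of the table, 5 qualified, S100a8, S100a9, S100a6, S100a4 and S100a10. Together they held 7 of its 293 entries, in 5 of the 17 cell populations. An entry is a gene listed as a marker of a population, and a gene can be listed for several. The study profiled bone marrow mononuclear cells of C57BL/KaLwRij mice aged 12 weeks by droplet single-cell RNA-Seq. The labels gave the agent as Control for 2 mice, as PBS for 3 and as CST6 for 3, and for 1 of the 9 mice they gave none. The study itself reports 3 mice for each of these groups. The title of 1 PBS mouse follows those of the Control mice, so single labels are uncertain. Mice of the Control group had no myeloma cells injected, those of the PBS group carried the mouse myeloma line 5TGM1 and received vehicle, and those of the CST6 group carried 5TGM1 and received recombinant mouse cystatin M/E. In the study, GFP-positive 5TGM1 cells were depleted by sorting, so the cells measured are the rest of the mononuclear fraction. The table pools the cells of all mice. It has no value for a single sample or group, so no effect of the tumor or of CST6 on an S100 gene was analysed here, and no value below has a replicate error or a test.

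S100 proteins are small proteins with a pair of EF hands, helix-loop-helix folds that hold calcium, and most act as dimers inside the cell. S100a8 and S100a9 pair with each other to form calprotectin, an abundant protein of the neutrophil cytosol, which binds zinc and manganese and, once released, signals through Toll-like receptor 4. S100a4 binds the heavy chain of nonmuscle myosin, S100a6 is calcyclin, and S100a10 is the partner of annexin A2 at the plasma membrane. S100a10 has EF hands that no longer bind calcium. Neutrophils and monocytes are the usual sources of calprotectin in the marrow.

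The 5 listed genes lie on chromosome 3 in the mm10 build (GRCm38, GENCODE M21), where 14 of the 17 S100 protein-coding genes of that annotation are found. All 5 are protein-coding. S100a4 (chromosome 3, 90603771 to 90606045) and S100a6 (90612882 to 90624181) are separated by 6.84 kb and have S100a5, which was not listed, between them. S100a8 (90668978 to 90670035) follows 44.8 kb further on. S100a9 (90692632 to 90695721) lies 22.6 kb beyond S100a8 on the opposite strand, with 0 annotated genes in between. S100a10 (93555080 to 93564643) stands apart, 2.86 Mb from S100a9 and 28.8 kb from S100a11. Of the 5, only S100a4 overlapped another annotated gene, Gm42674 on the same strand, so its reads may be shared with that gene. The other 12 family members were not listed for any population, which says only that they were not among the top entries.

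**Figure D1:**
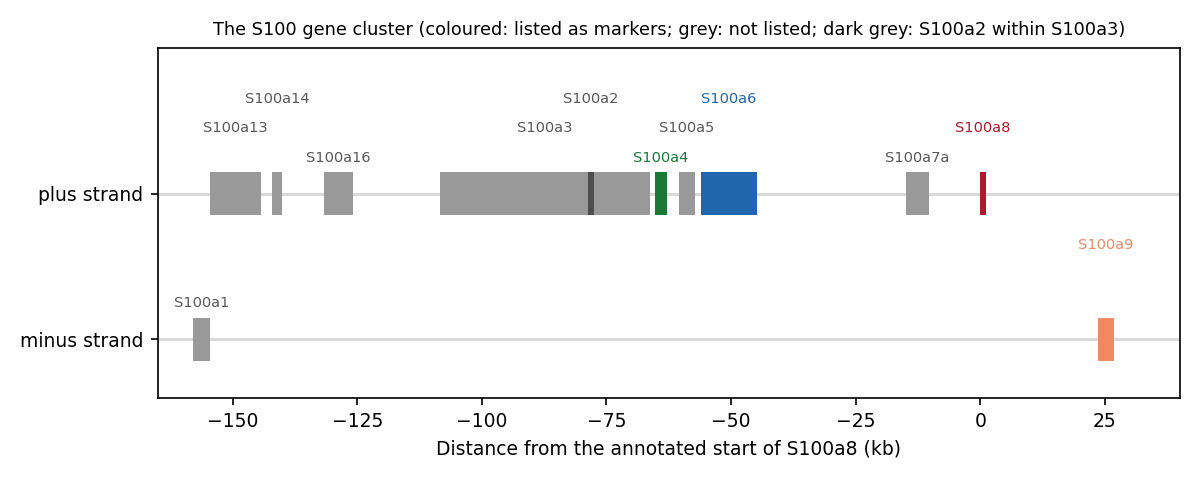
Position of the S100 genes of the chromosome 3 cluster from S100a1 to S100a9 along the plus and minus strands, as distance in kb from the annotated start of S100a8; bars are gene extents, coloured where the gene is a listed marker. S100a8 and S100a9 are neighbours on opposite strands, 22.6 kb apart, and S100a10, 2.86 Mb away from S100a9, is outside the plot.

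S100a8 and S100a9 were listed for the same populations, so their promoters are shown, beside that of S100a4, which lies in the same cluster but was listed for Macrophages. The windows run from 250 bases before to 50 bases after the RefSeq start of each gene (build GRCm38.p6), 5′ to 3′ on the strand of the gene, and 4 of the 5 listed genes had one. The RefSeq start of S100a8 lies within its GENCODE extent given above, so the starts of the annotations differ. S100a8 is read from chr3:90668821-90669120 on the plus strand, S100a9 from chr3:90695672-90695971 on the minus strand and S100a4 from chr3:90603520-90603819 on the plus strand. Capitals mark matches, on either strand, to 4 motifs, which are TATAAA for the TATA box, TTGCNNAA for C/EBP factors, GAGGAA for PU.1 and TGANTCA for AP-1.
S100a8: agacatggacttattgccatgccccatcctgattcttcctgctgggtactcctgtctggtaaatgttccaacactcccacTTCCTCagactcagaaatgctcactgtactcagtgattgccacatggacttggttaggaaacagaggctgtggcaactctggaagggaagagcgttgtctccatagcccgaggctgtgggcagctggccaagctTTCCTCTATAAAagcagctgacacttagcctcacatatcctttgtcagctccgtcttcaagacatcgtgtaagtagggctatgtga
S100a9: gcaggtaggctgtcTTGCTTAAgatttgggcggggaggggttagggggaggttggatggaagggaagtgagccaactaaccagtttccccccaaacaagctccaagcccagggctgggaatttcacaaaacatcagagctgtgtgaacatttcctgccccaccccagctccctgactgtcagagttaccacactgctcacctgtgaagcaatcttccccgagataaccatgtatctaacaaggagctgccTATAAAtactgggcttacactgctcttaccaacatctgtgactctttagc
S100a4: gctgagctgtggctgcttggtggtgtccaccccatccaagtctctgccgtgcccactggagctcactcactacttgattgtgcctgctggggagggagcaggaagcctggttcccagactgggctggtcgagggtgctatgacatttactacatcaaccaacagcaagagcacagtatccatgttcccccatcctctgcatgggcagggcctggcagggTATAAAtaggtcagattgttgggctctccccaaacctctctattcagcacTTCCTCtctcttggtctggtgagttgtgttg
Positions count from the first transcribed base as 1, and bases before it are negative. The TATA box motif began at -30 in S100a8 and at -31 in S100a4. In S100a9 it began at 1, on the annotated start itself. The motif was found in 13.6% of all 32851 promoter windows of this length. S100a8 further had the PU.1 motif, read as TTCCTC on this strand, at -170 and at -36, where it adjoins the TATA box, and S100a4 had it at 20, against 28.3% of all windows. The C/EBP motif was matched in S100a9 alone of the 4, at -236, and in 10.8% of all windows. The AP-1 motif, in 7.81% of all windows, had 0 matches in the 4, and the window of S100a6 matched none of the motifs. S100a8 and S100a9 thus had only the TATA box motif in common, at different distances from their starts. A match is a description of letters, not of binding.

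Each entry carries 3 of the values used here. The area under the receiver operating characteristic curve (AUC) is a score of how well the gene's value separates the cells of the population from all other cells, where 0.5 is no separation and 1 is complete separation. The share inside is the percentage of cells of the population with a value above 0, and the share outside is that percentage among all other cells. The rank of a gene is its place by AUC within its population. The AUC of Cd3e in T/NK cells was 0.974, while shares of 94.5% inside and 20.5% outside allow at most 0.967 if no value lies below 0. For that entry, values below 0 were ranked, or the columns came from different values. It was the only such entry of 293, and 0 of the S100 entries were among them. A share of cells with a value above 0 is therefore not read here as a share of cells with a transcript.

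The 7 S100 entries stood in neutrophil, macrophage and monocyte progenitor populations. Of the 5 genes, 3 were listed for a neutrophil population (23.5% of all 234 genes were), 2 for a monocyte or macrophage population (29.9% of all genes) and 0 for the dendritic, lymphoid and other progenitor populations (52.6% of all genes). S100a8 and S100a9 were the only members listed for 2 populations, which 21.4% of all genes were. The names of the populations were set beside marker genes other than S100. The study itself gave S100a8 and Ly6g as markers of Mature Neutrophils I, so the listing of S100a8 there is not independent of the name. Its markers of other populations included Retnlg, Mmp9, Camp, F13a1 and Itga1, so their listing is no independent check of the names. Mature Neutrophils I listed Ltf, Ly6g and Camp of 8 neutrophil markers, Mature Neutrophils II listed Retnlg, Mmp9, Mmp8 and Cxcr2, and Immature Neutrophils II listed Camp alone. Macrophages held Fn1 and F13a1 of 7 monocyte markers, while the defining macrophage gene Adgre1 was not listed there. Monocyte prog I listed F13a1, Itga1 and Fn1 of the monocyte markers.

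S100a8 ranked 7 of 15 genes in Mature Neutrophils I and 5 of 15 in Immature Neutrophils II. In Mature Neutrophils I its AUC was 0.873, with values above 0 in 100% of cells inside and 91.2% outside, a difference of 8.8 percentage points. In Immature Neutrophils II the AUC was 0.867, with 100% of cells inside and 92.1% outside, a difference of 7.9 points. The values of S100a8 in the 2 populations lay close together, one population named mature and the other immature. If the shares of 100% inside are exact, the shares outside can differ only through the sizes of the populations. No likeness of mature and immature cells is read from them. Immature Neutrophils II was headed by Cenpf, a kinetochore gene of dividing cells, with an AUC of 0.922, and Mature Neutrophils I by the lactoferrin gene Ltf with 0.932.

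S100a9, the partner of S100a8, followed it in both populations, at rank 8 of 15 in Mature Neutrophils I and rank 7 of 15 in Immature Neutrophils II. Its AUC was 0.866 in Mature Neutrophils I, where 100% of cells inside and 94.9% outside had a value above 0. In Immature Neutrophils II the AUC of S100a9 was 0.861, with 100% of cells inside and 95.4% outside. In both populations S100a9 had the lower AUC and the higher share outside of the pair. The difference between the shares was 5.1 points in Mature Neutrophils I and 4.6 points in Immature Neutrophils II. These differences between S100a8 and S100a9 have no error to be read against.

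The genes whose shares were most like those of S100a8 in Mature Neutrophils I were S100a9, at a distance of 3.7 percentage points, Camp at 8.0 and Anxa1 at 10.5, where the distance combines the shares inside and outside over the 15 entries of that population. In Immature Neutrophils II they were S100a9 at 3.3, Camp at 7.1 and Cenpf at 9.3. Camp codes for cathelicidin, an antimicrobial protein of the granules, whereas calprotectin is cytosolic. S100a8 and S100a9 were each other's only match by population, since 0 further genes were listed for exactly these 2. Camp and Ngp (neutrophilic granule protein) were listed for both as well, but also for other neutrophil populations. The calprotectin genes were not listed for Immature Neutrophils I with 15 entries, Immature Neutrophils III with 6 or Mature Neutrophils II with 16. Those lists were shorter than the longest, 20. What limited their length is not stated, and why the pair is absent from them was not tested.

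S100a6 was listed for Mature Neutrophils II alone, at rank 4 of 16. It had the highest AUC of the 7 S100 entries, 0.882, with values above 0 in 98.7% of cells inside and 86.9% outside, a difference of 11.8 points. Ahead of it stood Retnlg with an AUC of 0.984, the gelatinase gene Mmp9 with 0.972 and the collagenase gene Mmp8 with 0.965, and the next gene, Adam8, had 0.878. These 3 leaders had shares outside from 57.8% to 61.0%, below the 86.9% of S100a6. The nearest genes by shares were Slpi, a protease inhibitor gene, at 4.8 points, Pglyrp1, which codes for a peptidoglycan recognition protein, at 8.0 and Ifitm6 at 8.2. The neutrophil entries of the family stood in separate lists, with calprotectin in Mature Neutrophils I and Immature Neutrophils II and calcyclin in Mature Neutrophils II. Only 21.4% of all 234 genes were listed for 2 or more populations, so nothing about the family is read from this separation. Levels of each gene in the populations where it was not listed are unknown from the table.

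S100a4 closed the list of Macrophages, at rank 20 of 20. Its AUC was 0.818, the lowest of the S100 entries, and 86.5% of cells inside and 62.4% outside had a value above 0. This difference of 24.1 points was the largest of the 7 entries, so S100a4 was last by AUC and first by share difference. It was also the only S100 entry with a share inside below 90%. Genes near it by shares were the chemokine genes Ccl2 at 2.8 points and Ccl9 at 5.2. Ccl2 had 88.9% of cells inside and 63.9% outside, close to S100a4, with an AUC of 0.842. The list of Macrophages had 20 entries, the greatest length of any list, and S100a4 held its last place.

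S100a10 was listed for Monocyte prog I at rank 6 of 20. Its AUC was 0.878, with 98.6% of cells inside and 75.4% outside, a difference of 23.2 points. It stood directly behind F13a1, Itga1, Fn1, Tubb5 and Top2a, that is, monocyte genes and genes of dividing cells. The nearest entries were Tubb5, a tubulin gene, at 1.7 points, the coagulation factor gene F13a1 at 2.3 and the linker histone gene H1f4 at 2.8. The annexin A2 gene, whose product binds S100a10, was not listed for any population.

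**Figure D2:**
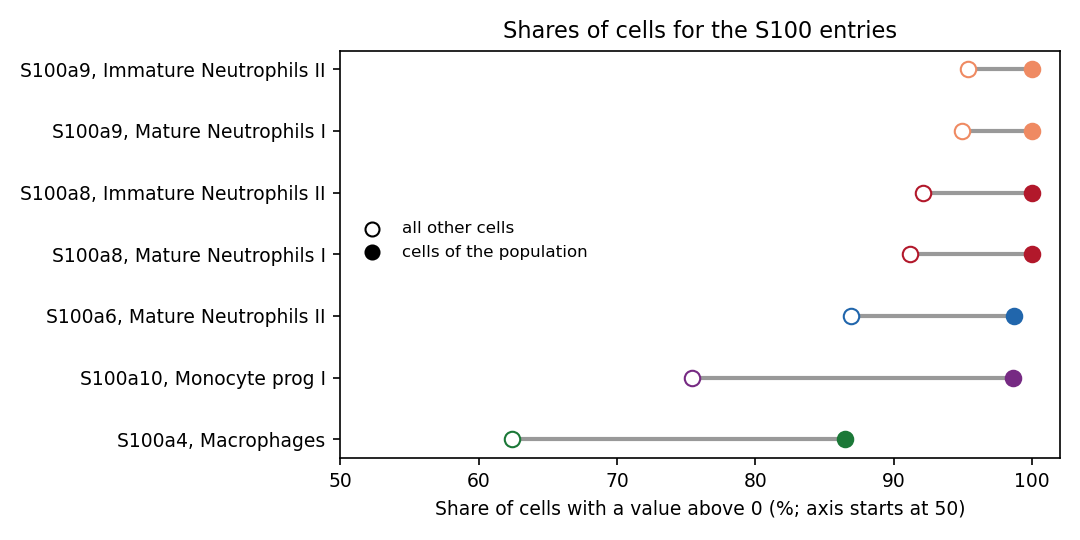
Share of cells with a value above 0 (percent, axis from 50) for the 7 S100 entries, with filled points for cells of the population, open points for all other cells, and a grey line for the difference. The lines are short for S100a9 (4.6 and 5.1 points) and S100a8 (7.9 and 8.8 points) and long for S100a10 (23.2 points) and S100a4 (24.1 points).

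Calprotectin genes had among the smallest contrasts in shares of the whole table. The 3 smallest differences of all 293 entries belonged to S100a9 in both populations and S100a8 in Immature Neutrophils II, with S100a8 in Mature Neutrophils I in place 6. The S100a8 and S100a9 entries made up 4 of the 8 entries with a share outside of at least 90%, so 4 of the 7 S100 entries reached it, against 2.73% of all entries. The other 4 were Cst3 in Monocytes at 91.8%, Ifi27l2a in Monocytes at 90.8%, Srgn in Myeloid prog at 90.7% and Hsp90ab1 in Monocyte prog II at 90.1%. All 4 calprotectin entries also had a share inside of 100%, as did 7.17% of all entries. They come from a single gene pair in the same pooled cells, each gene counted in both populations, so the entries are not independent. The median share outside was 91.2% over the 7 S100 entries and 67.5% over all 293. The median difference was 8.8 points over the S100 entries and 28.1 points over all entries. S100a4, with 62.4% outside, and S100a10, with 75.4%, lay nearer to the median of the table.

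Within their own populations the calprotectin genes also stood apart. The other 13 entries of Mature Neutrophils I had shares outside from 62.3% to 83.2%, all below S100a8 at 91.2%. In Immature Neutrophils II the other 13 entries ran from 61.6% to 85%, again below S100a8 at 92.1%. S100a6 exceeded all 15 other entries of Mature Neutrophils II, which ran from 57.8% to 83.2%. For S100a4 and S100a10 the order was different, since 16 and 7 entries of their populations had a higher share outside. Genes typical of other lineages had a wide range of shares outside. Siglech of Dendritic cells stood at 37.6%, Ccl5 of T/NK cells at 41.5%, and Prss34 and Mcpt8 of Eosinophil/Basophil prog at 45.4% and 57.7%. Cd79b had 68.2% in B cells and 68.5% in Pre/pro B cells, above S100a4 and below the calprotectin genes, and Ighm had 76.5% in B cells, above S100a10. The lowest share outside of the table was that of Cd3e at 20.5%. Cells outside a neutrophil population include the other 4 neutrophil populations, and neither their number nor the RNA content or depth of any cell is in the table. The part of free RNA in these shares was not tested.

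**Figure D3:**
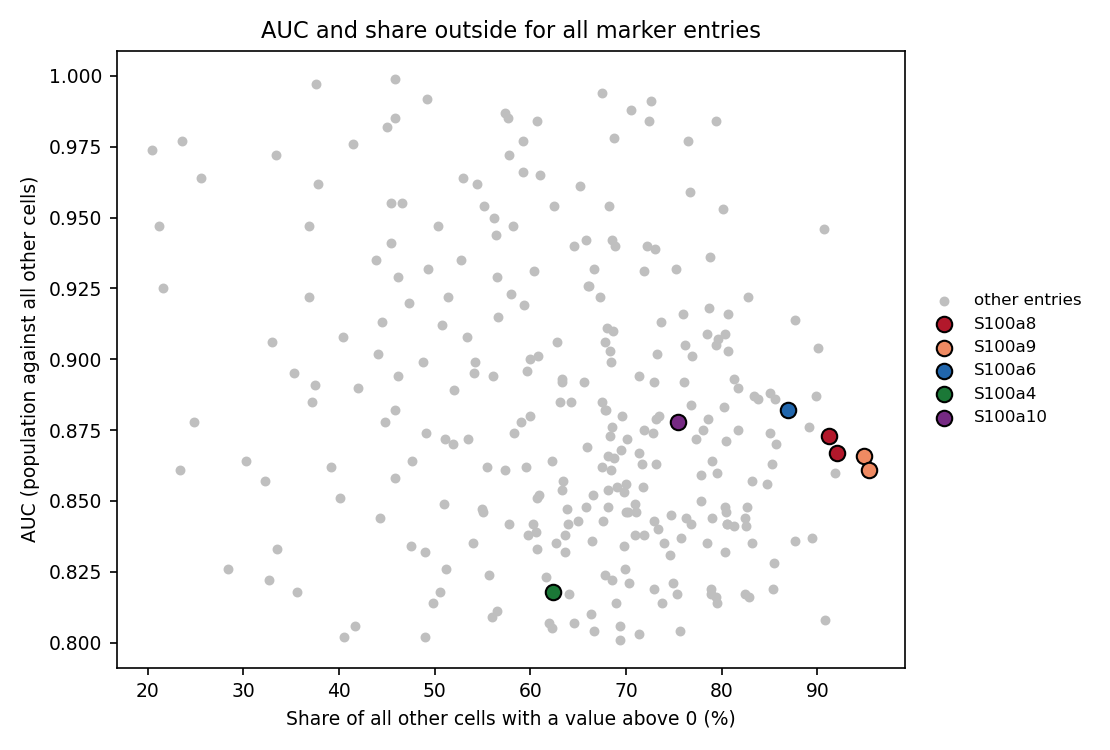
AUC (vertical) against the share of all other cells with a value above 0 (horizontal, percent) for all 293 entries, each point 1 gene in 1 population, with S100 genes coloured. The 2 S100a8 and 2 S100a9 points lie at the right edge, from 91.2% to 95.4%, with AUC values from 0.861 to 0.873 near the median of the table, 0.874.

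The AUC of the calprotectin genes was close to that of other markers, despite the small difference in shares. No entry of the table had an AUC below 0.801, so any listed gene has a high AUC whatever its shares. Nothing is read from the closeness. The median AUC was 0.867 over the S100 entries and 0.874 over all entries. If cells were only split at a value of 0, with the level above 0 left out, the area would follow from the shares alone. For S100a8 this area was 0.544 in Mature Neutrophils I, against the deposited 0.873, and 0.5395 in Immature Neutrophils II, against 0.867. For S100a9 it was 0.5255 and 0.523, against 0.866 and 0.861. The separation of these populations by S100a8 and S100a9 thus rested far more on differences in value beyond the split at 0 than on the split itself. This holds provided that shares and AUC come from the same values. With a lowest AUC of 0.801, it would be found for any listed gene with so small a difference in shares. A value of 0 is not read here as absence of the transcript. S100a6 gave 0.559 against 0.882. The split carried more for S100a10, with 0.616 against 0.878, and for S100a4, with 0.6205 against 0.818. Over all entries the median area of the split was 0.6405.

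**Figure D4:**
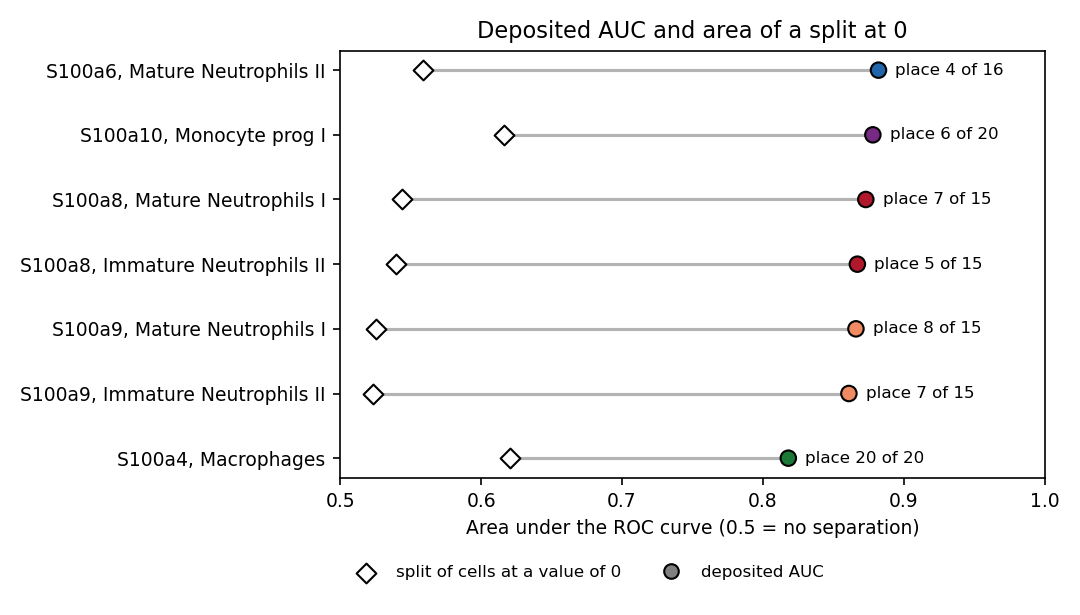
Area under the ROC curve for the 7 S100 entries, with diamonds for a split of cells at a value of 0 and circles for the deposited AUC, and the place within the population beside each circle. The distance is widest for S100a9 in Mature Neutrophils I (0.5255 to 0.866) and Immature Neutrophils II (0.523 to 0.861) and narrowest for S100a4 in Macrophages (0.6205 to 0.818).

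Genes whose products work with S100 proteins were followed through the table as well. Of 29 partners and receptors of the family, 2 were listed, Anxa1 and Lgals3. Of all 21924 protein-coding symbols of the annotation, 219 (0.999%) were listed under the same name, against 6.9% of the 29. How many of these genes the authors tested is unknown, so nothing is read from the comparison. Anxa1, the annexin A1 gene, whose product binds S100A11 in human cells, ranked 2 of 15 in Mature Neutrophils I with an AUC of 0.916, 100% of cells inside and 80.7% outside. It therefore stood ahead of S100a8 and S100a9 in the same population. Lgals3, which codes for the lectin galectin-3, ranked 3 of 20 in Macrophages with an AUC of 0.905, 99.6% of cells inside and 79.4% outside, in the same list as S100a4. Toll-like receptor 4, the receptor Ager and the subunits of the NADPH oxidase, which calprotectin can help to assemble, were not listed. Of 23 other EF-hand genes, among them those of calmodulin and the myosin light chain genes Myl6, Myl9, Myl12a and Myl12b, 0 were listed. Nothing is read from this at that share of all genes. The myosin light chain gene Myl4 was not on that list of genes but was listed for Pre/pro B cells, with an AUC of 0.864. Also outside that list, Actn1, the EF-hand gene of alpha-actinin 1, stood in Mature Neutrophils II with an AUC of 0.838, below S100a6. Both Myl4 and Actn1 were chosen after their values were seen.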

How the data were processed

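Tools and build in the submitters' processing notes are Cell Ranger, Seurat 4 and mm10. Per the study's methods, cells were filtered on detected genes and mitochondrial share, samples were integrated (reciprocal PCA), cells were clustered by the Louvain algorithm and markers were sought with MAST, whereas the deposited columns are those of Seurat's ROC test. For doublets, no handling is stated. From the authors' deposited table, the AUC, a score, and the fraction of cells with a value above 0 inside and outside each population were used, with fractions printed as percent. Further columns hold the authors' power, average differences and fold changes and were not used. 0 columns hold values of a sample, so depth is unknown and no interval is given. Names of populations are the authors', with uniform punctuation.

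Genes beginning with S100 were taken, as were partner, EF-hand and cell type marker lists. Members and lists were chosen with earlier results of these data known. The genes named beside an entry are from the 3 of its population nearest by Euclidean distance in both shares; 1 result is not reported here. Genes of a pair of populations were matched exactly. Leaders of lists and the entries with the highest shares outside were named after their values were seen, as were genes of other lineages. The area of a split at 0 is 0.5 plus the difference of the fractions divided by 2, and its formula and the maximum were checked on simulated cells. Positions come from GENCODE M21 (5 of 5 genes matched) and promoters from RefSeq, GRCm38.p6. Python 3.11.15, pandas 2.3.3 and matplotlib 3.10.9 were used.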

Additional observations from a re-analysis of the deposited data

How the results depend on the processing

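No error of a single value exists, so any changed value is given. With an AUC of at least 0.85, or with the first 10 entries of each population, 6 S100 entries were left of 7; in both cases S100a4 was the one lost. The median share difference of 8.8 points was 11.8 with 1 entry per gene and 8.35 with an AUC of at least 0.85. The median share outside of 91.2% became 86.9% and 91.65%, respectively.

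Ranks moved most. By share difference, S100a8 fell from 7 to 14 and S100a9 from 8 to 15 in Mature Neutrophils I, and from 5 to 14 and 7 to 15 in Immature Neutrophils II. S100a6 went from 4 to 16, S100a10 from 6 to 12 and S100a4 from 20 up to 14. By share outside, lowest first, S100a8 and S100a9 were again at 14 and 15 in both populations, S100a6 at 16, S100a10 at 13 and S100a4 at 4. These orders leave out the level above 0. No paired analysis was possible because the table has no values per sample.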

Other observations

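The shares of S100a8 and S100a9 bound the size of a population. Where all cells of a population have a value, every cell without one lies outside, and the number of such cells is the same in each entry of the gene. For S100a8, cells without a value were 8.8% of those outside Mature Neutrophils I and 7.9% of those outside Immature Neutrophils II, so the number of cells outside the former was 0.898 times that outside the latter (0.887 to 0.909 by rounding of the shares). For S100a9 the shares were 5.1% and 4.6% and the ratio 0.902 (0.883 to 0.921). Camp and Ngp, the other genes at 100% in both populations, each gave 0.893. If the shares of 100% are exact, S100a8 puts Mature Neutrophils I at 10.2% of all cells or more (9.1% by rounding) and S100a9 at 9.8% or more (7.9% by rounding). The ratios of the 4 genes overlap within rounding.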
